A study of Mus musculus with 3 samples.

Results

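Oligodendrocyte sub-cluster 1 is 1 of the 5 groups into which the authors divided the oligodendrocyte nuclei of mouse lumbar spinal cord. Its members were taken from the deposited annotation as the nuclei labelled oligodendrocyte and placed in sub-cluster 1, which gave 693 nuclei. They made up 32.0% of the 2165 oligodendrocyte nuclei, among 14662 nuclei in all. The other sub-clusters held 711 nuclei (sub-cluster 0), 576 (sub-cluster 2), 132 (sub-cluster 3) and 53 (sub-cluster 4).

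Oligodendrocytes wrap axons of the central nervous system in myelin, a stack of membrane rich in cholesterol and galactolipids and held together by proteins such as myelin basic protein (Mbp). They arise from oligodendrocyte precursor cells (OPCs), pass through a committed and newly formed stage and a myelin-forming stage, and end as several kinds of mature cell that differ by region. In the spinal cord, mature cells marked by Klk6 and Hopx (mature type 2) are common, and cells marked by Ptgds, Il33 and Grm3 (mature types 5 and 6) form another mature group. In disease models oligodendrocytes can switch on immune genes, among them complement component C4b.

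The nuclei came from 12 mice aged 90 days, 3 of each sex and genotype. SOD1G93A mice (B6.Cg-Tg(SOD1*G93A)1Gur/J) carry a human SOD1 transgene with an amyotrophic lateral sclerosis mutation beside their own Sod1, and wild-type (WT) mice were C57BL/6J littermates. The transgene is driven by the human SOD1 promoter and so is not limited to 1 cell type. Nuclei were marked with hashtag antibodies and sequenced in 3 pools (A, B and C) that each held 1 mouse of every sex and genotype, so that 6 pairs of a SOD1G93A and a WT mouse shared sex and pool. By the paper, each hashtag stood for the same sex and genotype in all pools, so hashtag and genotype are confounded. Sub-cluster 1 held 380 nuclei of WT and 313 of SOD1G93A mice, between 20 (female SOD1G93A pool C) and 91 (male WT pool A) per mouse. These gave 5492761 unique molecular identifiers (UMIs, each counting 1 captured RNA molecule), or 174229 to 754628 per mouse. Levels below are CPM, the UMIs of a gene summed over the nuclei of a mouse and scaled to a common total.

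Sub-cluster 1 was a near-uniform group in the authors' first clustering, where 687 of its 693 nuclei fell into 1 cluster (number 3) and the other 6 into cluster 5. Its nuclei were deeper, and had a lower share of mitochondrial UMIs, than those of the other large sub-clusters. The median nucleus held 7326 UMIs, against 4454 in sub-cluster 0 and 5075.5 in sub-cluster 2, and the median per mouse was above that of sub-cluster 0 in 12 of 12 mice and above that of sub-cluster 2 in 9 of 12. The median share of mitochondrial UMIs was 0.176%, against 0.310% in sub-cluster 0 and 0.298% in sub-cluster 2, and was lower than in sub-cluster 0 in 12 of 12 mice and than in sub-cluster 2 in 11 of 12. Sub-clusters 3 and 4 were deeper still, at 10569 and 9023 UMIs. Within sub-cluster 1 the median depth per mouse ran from 4571 to 9644 UMIs in WT mice and from 6103 to 8354 in SOD1G93A mice, so the genotypes overlapped.

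The label was checked against Mbp and Mobp, which encode structural proteins of compact myelin. Mbp in sub-cluster 1 had a lowest, median and highest level per mouse of 3007, 3685 and 4122 CPM. Its mean of 3650 ± 316 CPM (SD, n = 12 mice) was above the 3211 of sub-cluster 0 (higher in 10 of 12 mice) and the 2131 of sub-cluster 2 (12 of 12). Mobp had 1017, 1300 and 1495 CPM, and its mean of 1284 ± 138 CPM was below the 1422 of sub-cluster 0 (lower in 11 of 12 mice) and above the 994 of sub-cluster 2 (higher in 11 of 12). Both genes were thus above 1000 CPM in every mouse. Since the sub-clusters were made from the expression of these nuclei, all differences of level between them are given as descriptions, with no test.

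Myelin genes as a group were near sub-cluster 0 and above sub-cluster 2. A list of 20 myelin protein and lipid genes, Mbp and Mobp included, summed to 10211 ± 594 CPM, against 10249 ± 801 in sub-cluster 0 and 7342 ± 1682 in sub-cluster 2 (SD, n = 12). Members of the list went both ways against sub-cluster 0. Mbp was higher, as given above, while Mog and Mag, outer and inner membrane proteins of myelin, and Cldn11, the claudin of its tight junctions, were lower: Cldn11 had 162 ± 48.3 CPM against 296 ± 70.5, lower in 12 of 12 mice. Elovl7, which elongates very long fatty acids, was higher at 667 ± 87.5 CPM against 468 in sub-cluster 0 and 230 in sub-cluster 2, in 12 of 12 mice for both. Ugt8a, Fa2h and Gal3st1, enzymes of the galactolipids of myelin, were higher than in sub-cluster 0 in 8, 9 and 10 of 12 mice and higher than in sub-cluster 2 in 12 of 12. The 20 cholesterol synthesis genes summed to 891 ± 176 CPM, against 784 in sub-cluster 0 (higher in 10 of 12 mice) and 549 in sub-cluster 2 (12 of 12). Of the oligodendrocyte transcription factors, St18 made up most of the sum and stood at 4878 ± 516 CPM against 4618 and 3139, while Sox10 (74.3 CPM against 88.3 and 73.4) and Myrf (85.3 against 96.5 and 83.8) were near the other sub-clusters.

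Most early stage markers were low in sub-cluster 1. The 7 OPC markers summed to a lowest, median and highest of 141, 268 and 1126 CPM per mouse, close to the median of 274 in sub-cluster 0 and under the 746 of sub-cluster 2 and the 8394 of sub-cluster 4. The highest value came from 1 mouse, female SOD1G93A pool C, which had the fewest nuclei. Gpr17, Neu4 and Bmp4, which define committed and newly formed cells, had means of 1.04, 0.473 and 0.808 CPM in sub-cluster 1, against 74.2, 80.4 and 78.6 CPM in sub-cluster 4. The whole list of 10 such markers summed to 1063 ± 110 CPM against 8039 ± 2705 in sub-cluster 4. That sum was near the 1017 of sub-cluster 0 and above the 777 of sub-cluster 2 (in 11 of 12 mice) and the 816 of sub-cluster 3 (in 10 of 12), and Enpp6 and Bcas1 gave nearly all of it in sub-cluster 1. Bcas1, a protein of early myelinating cells, had 454 ± 67.5 CPM against 520 in sub-cluster 0 and 501 in sub-cluster 2. Enpp6, a choline phosphodiesterase, had 511 ± 44.4 CPM, above sub-cluster 0 (419) in 11 of 12 mice and above sub-cluster 2 (127) in 12 of 12.

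The 7 myelin-forming markers were on average lowest in sub-cluster 1. They summed to 341, 360 and 466 CPM (lowest, median and highest of 12 mice), with a mean of 377 against 505 in sub-cluster 0 and 853 in sub-cluster 2. Opalin, a myelin membrane glycoprotein, had 7.72 CPM against 24.8 and 154, and Tspan2, a tetraspanin of myelin, had 93.9 ± 18.8 CPM against 181 and 343, lower than in sub-clusters 0 and 2 in 12 of 12 mice each. Fam107b went the other way, with 71.5 CPM against 30.0 and 29.9, higher in 12 of 12 mice for both.

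Of the mature kinds, 3 of the 8 type 2 markers were higher in sub-cluster 1 than in sub-clusters 0 and 2 in at least 10 of 12 mice, and 6 of the 10 markers of types 5 and 6, beside Trf at 0, were on average lower than in both. Hopx had 42.2 ± 10.5 CPM against 26.2 in sub-cluster 0 and 12.3 in sub-cluster 2, and Anxa5 (40.2 against 20.8 and 10.6) and Mgst3 (43.4 against 25.5 and 13.5) had the same order. The share of all genes that met this rule, given below, was counted among more abundant genes and leaves these 3 out. No such share was counted at their levels, so 3 of 8 is a description and does not by itself mark sub-cluster 1 as type 2. Klk6, a secreted kallikrein protease, stood at 65.6 ± 23.6 CPM, near sub-cluster 0 (71.1, higher in 5 of 12 mice) and above sub-cluster 2 (14.6, 12 of 12). The summed type 2 list (710 ± 153 CPM against 1006 and 543) did not follow these genes. Fth1, the ferritin heavy chain, made up most of it and was lower than in sub-cluster 0 in 12 of 12 mice (429 CPM against 751), and S100b (71.4 against 81.9), Nkx2-9 (7.62 against 8.98) and Cd9 (10.5 against 20.6) were also lower on average.

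Among the type 5 and 6 markers, Grm3, a metabotropic glutamate receptor, had a lowest, median and highest level of 47.2, 110 and 184 CPM in sub-cluster 1, and no mouse reached the lowest value of sub-cluster 0 (436) or of sub-cluster 2 (521). Il33, a nuclear cytokine, had 10.5 CPM against 30.4 and 224. Ptgds, prostaglandin D synthase, had 49.8 CPM against 96.2 and 332, and Car2, carbonic anhydrase, 168 CPM against 357 and 278. Gria3, a glutamate receptor subunit, had 60.0 CPM against 88.0 and 266, and Gad2, a GABA-synthesising enzyme, 6.49 against 16.8 and 23.0. The other way round, Apod, a lipid-binding lipocalin, was higher in sub-cluster 1 at 890 ± 168 CPM against 694 and 244, in 10 and 12 of 12 mice, while Anln and Hapln2 lay between sub-clusters 0 and 2. Trf, transferrin, was at 0 UMIs in sub-cluster 1 and was near 0 in the other sub-clusters too, at a mean of at most 0.451 CPM. The 10 genes summed to 1577, 2158 and 2390 CPM (lowest, median and highest), below sub-cluster 0 and sub-cluster 2 in 12 of 12 mice each. Their mean of 2102 CPM was near the 1994 of sub-cluster 3 and above the 813 of sub-cluster 4.

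Markers of other cells were on average lower in sub-cluster 1 than in sub-clusters 0 and 2 for neurons and astrocytes. The 10 neuron markers summed to 1343, 2278 and 5234 CPM in sub-cluster 1 (mean 2701), against means of 3884 in sub-cluster 0 and 14694 in sub-cluster 2, and lower than in sub-cluster 2 in 12 of 12 mice. The 7 astrocyte markers summed to 521 ± 77.1 CPM against 757 and 1070. The microglia, endothelial and Schwann markers summed to 58.4, 15.6 and 38.7 CPM, and the immediate early genes, which rise when cells are disturbed, to 9.21 CPM against 26.7 and 27.3.

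**Figure D1:**
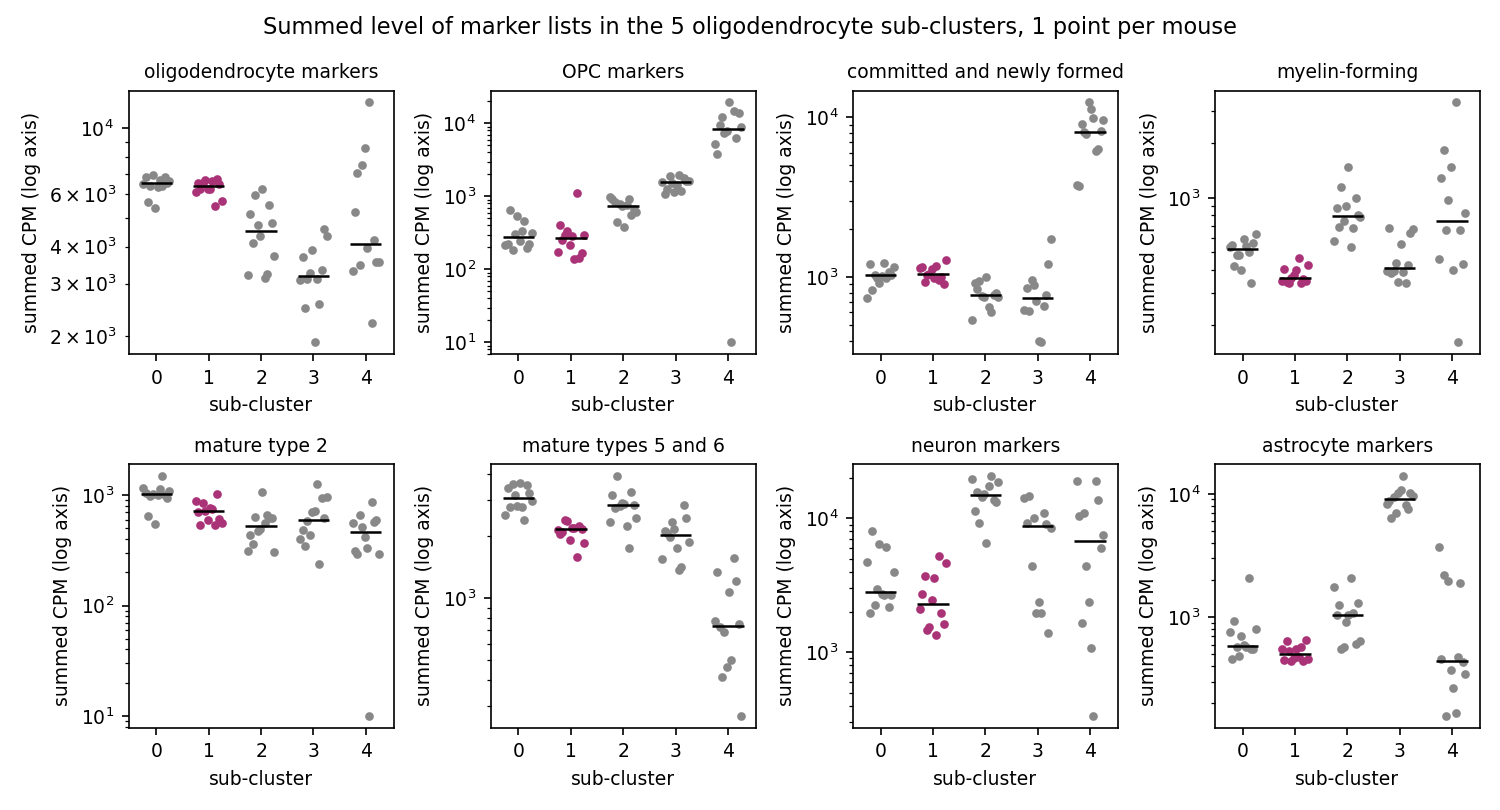
Summed CPM of 8 marker lists (1 panel each, logarithmic vertical axis, values under 10 CPM drawn at 10) in the 5 oligodendrocyte sub-clusters, with 1 point per mouse and a black line at the median of the 12 mice. In sub-cluster 1 (purple) the OPC markers lay at 141 to 1126 CPM and the neuron markers at 1343 to 5234 CPM, and the type 5 and 6 markers reached 2390 CPM at most.

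Genes that set sub-cluster 1 apart from sub-clusters 0 and 2 were found by level within each mouse. Of 3924 genes with at least 50 CPM in sub-cluster 0, 1 or 2, 453 (11.5%) were higher in sub-cluster 1 than in both other sub-clusters in at least 10 of 12 mice, and 391 (9.96%) were lower. The same values chose these genes, so the shares describe the sub-cluster and test nothing. With each nucleus thinned to 1000 UMIs, 230 and 181 genes met the same rule, and 186 and 125 of them also met it without thinning. Thinning equals depth per nucleus but not per summed mouse, and it leaves out 8 shallower oligodendrocyte nuclei (0 of sub-cluster 1). None of the 24 genes singled out below changed direction. They were chosen for the largest ratios in these same nuclei, so this is no separate support.

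Hmcn1, which encodes hemicentin 1, a large protein of the extracellular matrix (GRCm38 chr1:150562524-150993435, minus strand), led the higher genes. It had a lowest, median and highest level of 478, 813 and 1091 CPM in sub-cluster 1, against medians of 29.1 CPM in sub-cluster 0 and 45.1 CPM in sub-cluster 2, and the ranges did not overlap. Its log2 ratio, with 20 CPM added to both levels, was 3.99 ± 0.62 to sub-cluster 0 and 3.73 ± 0.76 to sub-cluster 2 (SD, n = 12 mice). It had at least 1 UMI in 55.6% of the nuclei of sub-cluster 1. Gm20631, an antisense gene on the other strand within Hmcn1 (chr1:150625266-150783499), was also among the 12 higher genes (127 CPM against 2.51 and 9.71). Whether counting used strand is not given in the sources used here, so how reads were split between this pair is uncertain.

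Other leading genes were abundant. Dlc1, a GTPase-activating protein, had 1841 ± 292 CPM against 625 in sub-cluster 0 and 285 in sub-cluster 2 and was found in 96.7% of nuclei. Gm32122, a long non-coding RNA, had 1448 ± 226 CPM against 307 and 127. Art3, an ADP-ribosyltransferase family member (390 CPM against 135 and 36.1), and Ror1, a receptor of Wnt5a (339 against 114 and 39.9), showed the same order of sub-cluster 1, then 0, then 2. Scel (sciellin, 282 CPM against 36.1 and 21.5), Sdk1 (the adhesion protein sidekick 1), Fbxl7 (an F-box protein), Gm4876 (124 CPM, though 195 CPM in sub-cluster 4), Gpr176 (an orphan receptor) and Arntl2 (a transcription factor of the circadian clock family) completed the 12, all higher in 12 of 12 mice in both comparisons. None of the 12 was among the genes called between genotypes below, with Hmcn1, for example, at 825 ± 213 CPM in WT and 783 ± 244 CPM in SOD1G93A mice (n = 6 each).

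Genes lower in sub-cluster 1 were led by Grm3 (chr5:9485541-9725170, minus strand), whose log2 ratio was -2.56 ± 0.40 to sub-cluster 0 and -2.90 ± 0.38 to sub-cluster 2. Ano4, of the anoctamin family of channels and scramblases, had 141 ± 64.4 CPM against 686 and 1385. March1, a membrane ubiquitin ligase, had 306 CPM against 1188 and 1337. Kcna1, a voltage-gated potassium channel, Tmod2, a tropomodulin that caps actin filaments, Spock1, a proteoglycan, Oxr1, an oxidation resistance protein, Creb5, a transcription factor, Palm2, Sept4, a septin, and the non-coding A230001M10Rik were lower in 12 of 12 mice in both comparisons, and Tmem132d in 11 of 12. Several of the lower genes, such as Kcna1, are also used by neurons, and neuron markers were lower in sub-cluster 1 than in sub-cluster 2 in 12 of 12 mice and than in sub-cluster 0 in 9 of 12. The part of neuronal RNA in these differences was not tested.

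**Figure D2:**
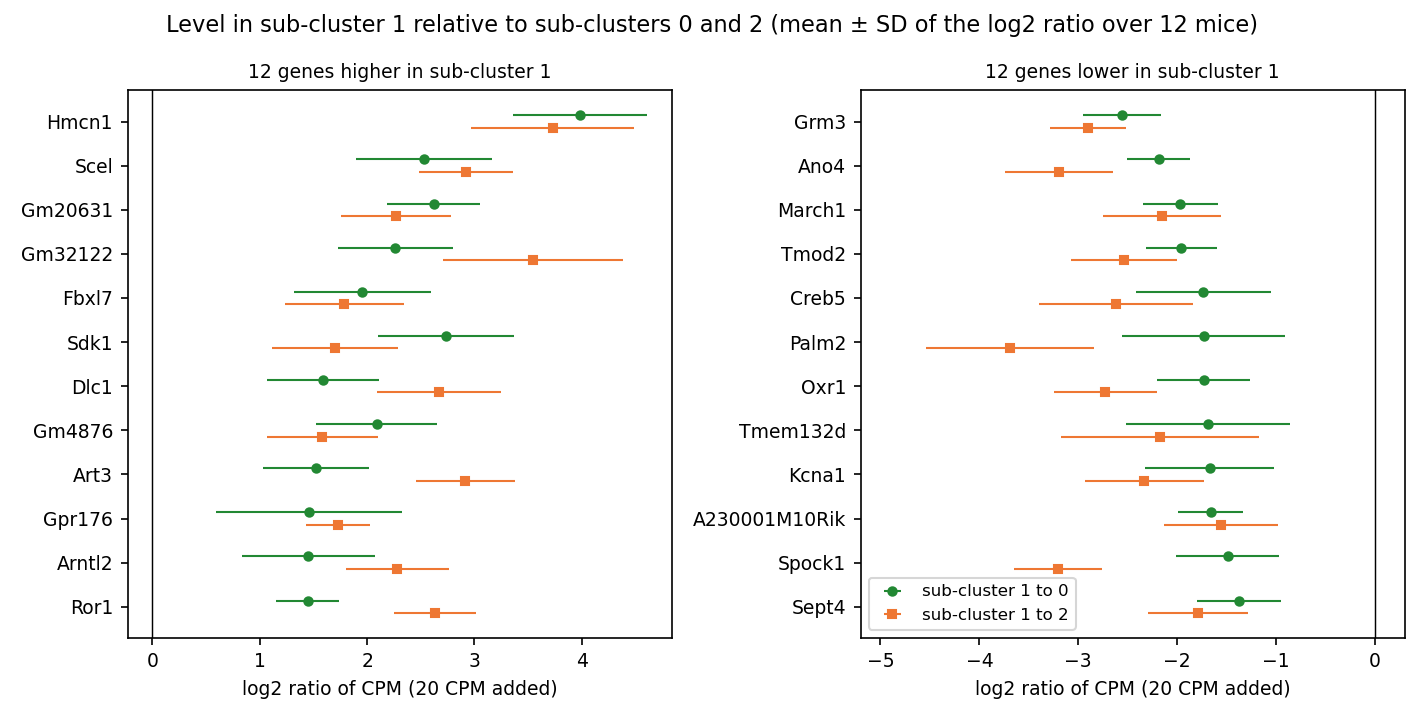
Log2 ratio of the level in sub-cluster 1 to that in sub-cluster 0 and in sub-cluster 2 for the 12 higher and 12 lower genes (horizontal axis, 20 CPM added, points are means and bars SDs over 12 mice). Hmcn1 lay at 3.99 and 3.73 and Grm3 at -2.56 and -2.90. The rule that chose the genes required both mean ratios to lie on the same side of 0.

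The share of sub-cluster 1 among the oligodendrocyte nuclei of a mouse was compared between genotypes to ask whether the group was larger or smaller in SOD1G93A mice. In WT mice the share had a lowest, median and highest value of 22.8%, 32.3% and 35.2%, and in SOD1G93A mice of 21.7%, 39.7% and 45.5%. The WT range lay within the SOD1G93A range, and 4 of the 6 SOD1G93A mice, those of pools A and C, were above every WT mouse. The means were 31.3% ± 4.83 and 36.6% ± 9.18 (SD, n = 6 mice each). Female WT mice averaged 33.5% ± 3.07, male WT mice 29.1% ± 5.91, female SOD1G93A mice 38.4% ± 8.14 and male SOD1G93A mice 34.9% ± 11.6 (n = 3 each).

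The difference was not called. In edgeR's quasi-likelihood test over the 5 sub-clusters, with pool in the model, the log2 fold change of the share was 0.17 (FDR = 0.627), with the SOD1G93A mouse higher in 4 of 6 pairs. Pool by pool, the SOD1G93A mouse was above its WT partner in both pairs of pools A and C and below it in both pairs of pool B. Over the 6 pairs the mean difference was 5.33 percentage points (range -8.43 to 16.5), and a two-sided exact permutation of its sign gave p = 0.219, where 6 pairs allow no p below 0.0313. The exact 95% binomial interval of 1 mouse, which covers counting error only, was as wide as 30.4% to 61.2% (female SOD1G93A pool C, 20 of 44 nuclei). Sub-cluster 3, which shares the denominator, was the group called in the same test, at a log2 fold change of -1.35 (FDR = 0.0259, SOD1G93A lower in 5 of 6 pairs), and with sub-clusters 0, 1 and 2 alone as the denominator the value for sub-cluster 1 was 0.07 (FDR = 0.698, between 0.393 and 0.917 over all alternatives).

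**Figure D3:**
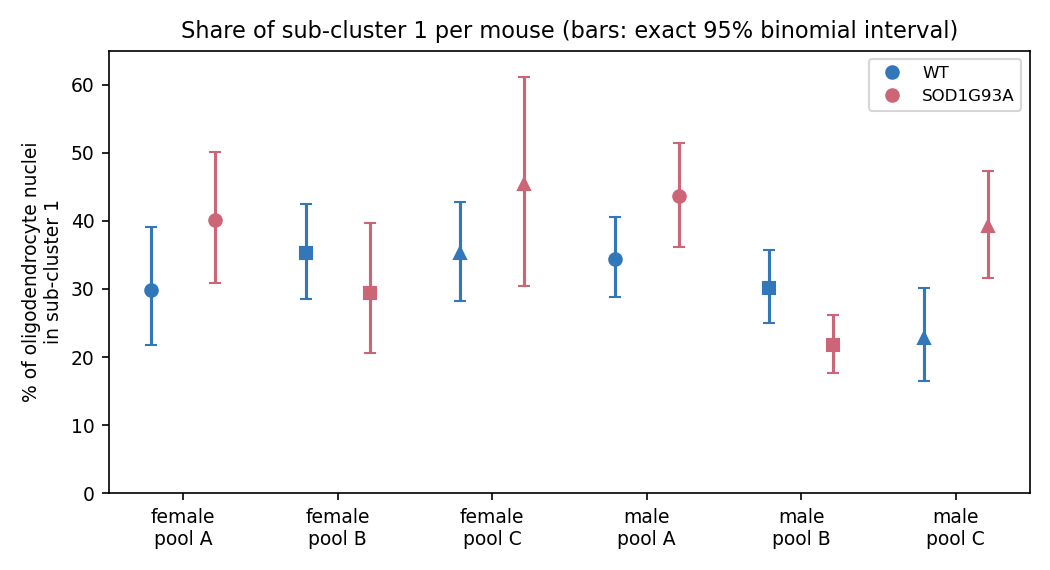
Percent of the oligodendrocyte nuclei of each mouse that lay in sub-cluster 1 (vertical axis, from 0), with 1 point per mouse and exact 95% binomial intervals. The 6 WT mice lay between 22.8% and 35.2%, and the 6 SOD1G93A mice between 21.7% and 45.5%.

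Expression was then compared between genotypes on the UMIs of sub-cluster 1 summed per mouse, to ask which genes the transgenic mice expressed differently within 1 kind of oligodendrocyte. Few genes passed. Of 6245 genes tested with limma, with sex, genotype and pool in the model, 3 had a false discovery rate (FDR) below 0.1 (0.048% of those tested), and C4b, Stat3 and Xpo1 were all higher in SOD1G93A mice. At an unadjusted p below 0.05 there were 363. edgeR called 3 and DESeq2 1 (C4b). The median log2 fold change over all genes was 0.01. The median mitochondrial share of sub-cluster 1 nuclei ran from 0.130% to 0.258% per mouse in WT (median 0.201%) and 0.126% to 0.194% in SOD1G93A mice (median 0.155%), and was higher in SOD1G93A mice in 1 of 6 pairs. Its part in the results below was not tested. CPM values in this comparison use the genes tested and library sizes scaled by edgeR's TMMwsp factors and so differ slightly from those above.

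Sod1 serves as the check of the genotype labels. Reads of the human transgene can only be counted where they align to mouse Sod1 (chr16:90220754-90226329), which WT mice express too. In sub-cluster 1 the lowest, median and highest levels were 52.9, 66.5 and 184 CPM in WT mice and 81.8, 104 and 196 CPM in SOD1G93A mice. The SOD1G93A mouse was higher in 6 of 6 pairs, but the ranges overlapped, since both WT mice of pool A (128 and 184 CPM) were above the SOD1G93A mice of pools B and C (81.8 to 112 CPM). The log2 fold change was 0.52 ± 0.14 (SE), with a limma FDR of 0.382, so Sod1 did not itself pass in these nuclei. In some other cells of the same mice Sod1 stood further apart, for example at 140 ± 40.1 CPM in WT and 1805 ± 492 CPM in SOD1G93A endothelial nuclei and at 135 ± 78.9 and 687 ± 358 CPM in astrocytes, but not in the sparse fibroblasts (96.3 ± 104 and 123 ± 121 CPM; unscaled, SD, n = 6 each).

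C4b, the fourth component of complement (chr17:34728380-34743882, minus strand), had the smallest p of all genes. WT mice had 0, 1.47, 2.80, 5.10, 7.38 and 8.88 CPM, and SOD1G93A mice 21.8, 26.1, 26.8, 30.6, 41.6 and 45.0 CPM. The lowest SOD1G93A mouse was thus above the highest WT mouse, a separation in this direction that 11 of the 6245 genes showed (0.176%). These levels rest on 12 UMIs in the 6 WT mice and 80 in the 6 SOD1G93A mice. C4b could pass the filter on low counts through the SOD1G93A mice alone. Its separation and small p among the genes tested are therefore descriptions and not separate support. The means were 4.27 ± 3.46 and 32.0 ± 9.25 CPM (SD, n = 6 each), a log2 fold change of 2.65 ± 0.40 (SE) with a limma FDR of 0.00248, higher in 6 of 6 pairs. Mice also have C4a, a near-identical copy that was not analysed here, so how reads were split between the copies is uncertain.

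C4b was also counted in other cell types, some lower and some higher than sub-cluster 1. On unscaled CPM, neurons of the same mice had 0.847 ± 0.233 CPM in WT and 2.26 ± 0.41 in SOD1G93A mice, and OPCs 0.618 ± 1.08 and 4.52 ± 4.83. Astrocytes had 15.4 ± 2.55 and 39.3 ± 10.5 CPM, and microglia 3.65 ± 0.56 and 16.2 ± 7.74 (SD, n = 6 each). The astrocyte markers of sub-cluster 1 overlapped between genotypes, with summed levels of 440 to 646 CPM in WT and 442 to 658 CPM in SOD1G93A mice and the SOD1G93A mouse higher in 2 of 6 pairs. The part of RNA from other cells in the C4b level was not tested.

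Stat3 (chr11:100885098-100939540, minus strand) encodes the transcription factor that carries signals of interleukin-6 type cytokines to the nucleus. Its lowest, median and highest levels were 60.2, 80.6 and 95.4 CPM in WT mice and 93.2, 153 and 228 CPM in SOD1G93A mice. The ranges met only at 1 mouse, male SOD1G93A pool A, which at 93.2 CPM lay below female WT pool B. The log2 fold change was 0.92 ± 0.18 (limma FDR = 0.0388, higher in 6 of 6 pairs), from means of 79.8 ± 11.3 and 157 ± 46.1 CPM. With single mice left out the log2 fold change was 0.76 or more, and the call was lost (FDR 0.103 to 0.185) without female WT pool C, male WT pool B, male WT pool C, female SOD1G93A pool A, male SOD1G93A pool B or male SOD1G93A pool C, and also without the pool term (FDR = 0.231). On unscaled CPM, astrocytes of the same mice had 72.0 ± 16.4 CPM in WT and 121 ± 16.9 in SOD1G93A mice. Motor neurons had 124 ± 31.3 and 168 ± 43.9, microglia 62.9 ± 10.2 and 78.5 ± 19.6, and OPCs 69.5 ± 19.1 and 91.2 ± 45.1. Neurons had 45.1 ± 2.17 and 50.1 ± 8.23 and endothelial nuclei 125 ± 23.4 and 143 ± 31.8 (SD, n = 6 each).

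Xpo1 (chr11:23256041-23298249) encodes exportin 1, which carries proteins with a nuclear export signal out of the nucleus. It had 74.0, 86.1 and 122 CPM in WT mice and 85.8, 174 and 195 CPM in SOD1G93A mice. Again 1 mouse made the overlap, female SOD1G93A pool C at 85.8 CPM, and the other 5 SOD1G93A mice (133 CPM and more) were above every WT mouse. The log2 fold change was 0.81 ± 0.16 (limma FDR = 0.0388, higher in 6 of 6 pairs), from means of 92.7 ± 19.6 and 158 ± 41.7 CPM. With single mice left out it stayed between 0.61 and 0.92, and the call was lost (FDR 0.103 to 0.260) without female WT pool B, male WT pool A, male WT pool B, female SOD1G93A pool A, male SOD1G93A pool B or male SOD1G93A pool C, and also without the pool term (FDR = 0.178). On unscaled CPM, neurons of the same mice had 72.2 ± 6.02 CPM in WT and 109 ± 5.45 CPM in SOD1G93A mice, motor neurons 82.1 ± 12.5 and 136 ± 25.2, astrocytes 133 ± 28.1 and 192 ± 33.6, and microglia 78.6 ± 7.15 and 120 ± 16.1, while OPCs had 92.3 ± 20.5 and 93.4 ± 48.7 and endothelial nuclei 93.3 ± 9.59 and 102 ± 31.9 (SD, n = 6 each).

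The summed neuron markers in sub-cluster 1 had a lowest, median and highest level of 1458, 2278 and 3717 CPM in WT mice and of 1343, 2794 and 5234 CPM in SOD1G93A mice, higher in 5 of 6 pairs, with ranges that overlapped. Of the 9 neuron markers tested 8 had a positive log2 fold change, none passed in limma and 1, Grin1, a subunit of NMDA receptors, had an unadjusted p below 0.05 (log2 fold change 0.88). Their part in the calls was not tested. Without the 10% of nuclei highest in neuron markers Stat3 and Xpo1 had a limma FDR of 0.0631 each (0.00440 to 0.231 and 0.00670 to 0.389 over all alternatives), and C4b fell below the filter on low counts, with 12 UMIs left in the WT group and 66 in the SOD1G93A group.

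**Figure D4:**
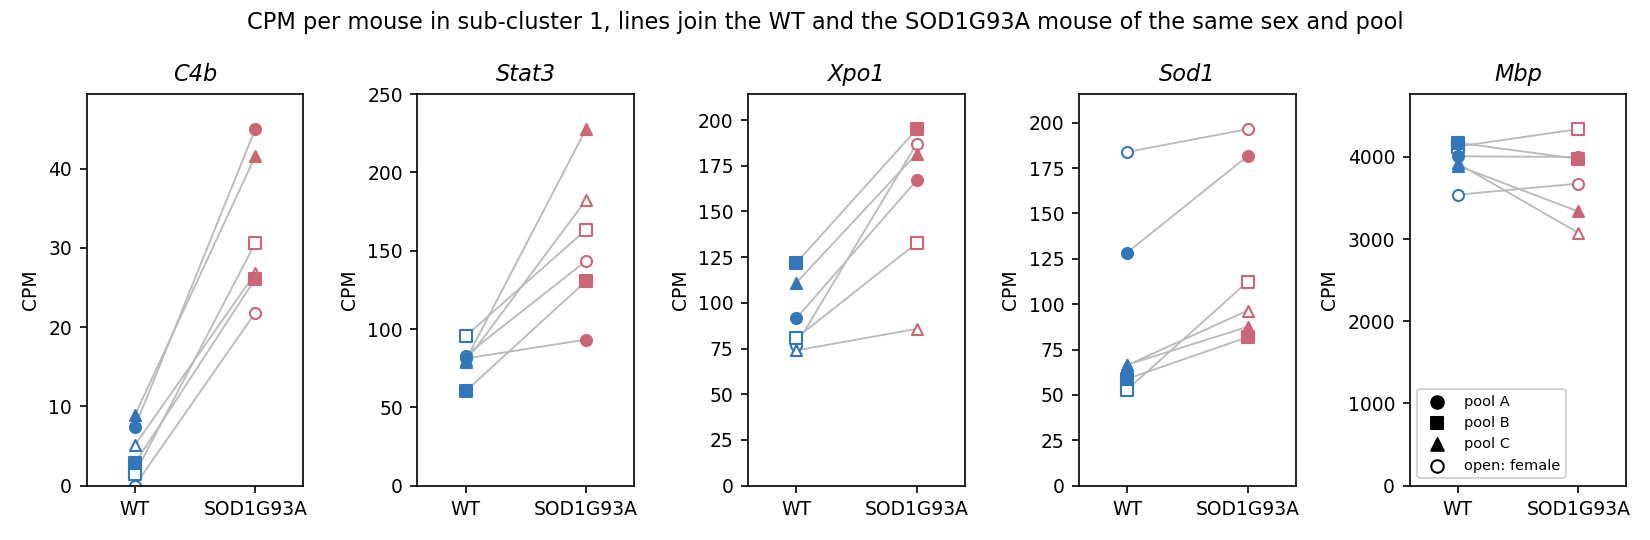
CPM per mouse in sub-cluster 1 for C4b, Stat3, Xpo1, Sod1 and Mbp (vertical axes from 0), with lines joining the WT and SOD1G93A mouse of the same sex and pool, symbols for pools and open symbols for females. C4b separated the genotypes (at most 8.88 against at least 21.8 CPM), Stat3 and Xpo1 rose along all 6 lines with 1 overlapping SOD1G93A mouse each, and Mbp overlapped broadly.

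In all 6 pairs, 130 genes (2.08%), the 3 called ones among them, were higher and 107 (1.71%) lower in SOD1G93A mice. The 5 higher ones of smallest p that limma did not call were Aldh1l2, Poc1b, Epb41l4b, Slc23a2 and Pros1. Aldh1l2, a mitochondrial enzyme of folate metabolism, had 41.5 to 66.6 CPM in WT and 76.6 to 109 CPM in SOD1G93A mice without overlap, at a log2 fold change of 0.75 ± 0.17 (FDR = 0.167). Pros1, protein S, an anticoagulant and ligand of TAM receptors, had 5.91 to 18.2 CPM and 20.9 to 37.4 CPM without overlap (1.39 ± 0.36, FDR = 0.330). Poc1b, a centriole protein (1.13 ± 0.26, FDR = 0.167), and Slc23a2, a vitamin C transporter (0.90 ± 0.22, FDR = 0.227), did not overlap either. Pros1 and Poc1b were low in WT mice and could pass the filter on low counts through the SOD1G93A mice alone. Epb41l4b, a FERM domain protein, overlapped (0.57 ± 0.14, FDR = 0.227).

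The 5 lower ones were Tmprss5, 9330182L06Rik, Sh3rf1, Bud13 and Clgn. Tmprss5, a membrane serine protease, had a lowest, median and highest level of 125, 172 and 226 CPM in WT mice and of 86.8, 105 and 140 CPM in SOD1G93A mice, with a log2 fold change of -0.66 ± 0.15 (FDR = 0.167). 9330182L06Rik had -0.46 ± 0.11 (FDR = 0.167). Bud13, a splicing factor, did not overlap (26.4 to 65.2 CPM against 8.71 to 24.9 CPM, -0.94 ± 0.29, FDR = 0.587), which 6 genes (0.0961%) showed in this direction. It could pass the filter on low counts through the WT mice alone. Sh3rf1, a ubiquitin ligase and scaffold (-0.47 ± 0.14), and Clgn, a chaperone of the endoplasmic reticulum (-0.47 ± 0.15), had FDRs of 0.579 and 0.591.

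Genes of myelin itself did not pass. In limma the effect on Mbp was -0.08 ± 0.07 (log2, SE, FDR = 0.935, lower in 4 of 6 pairs) and that on Mobp -0.04 ± 0.10 (FDR = 0.978, lower in 4 of 6 pairs). Of the 20 myelin protein and lipid genes 19 were tested, with a median log2 fold change of -0.01, and 1, Cldn11 (0.46), had an unadjusted p below 0.05. Of 20 cholesterol synthesis genes 15 were tested, of which 12 had a negative value, with a median of -0.24 against 0.01 over all genes. None of these was called, and the one with an unadjusted p below 0.05 was Insig1, the sterol-sensing regulator of the pathway (-0.80 ± 0.37, FDR = 0.832). The summed cholesterol genes had 677 to 1325 CPM in WT and 655 to 965 CPM in SOD1G93A mice and were higher in SOD1G93A mice in 3 of 6 pairs.

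Many members of the immune-related lists had too few UMIs to be tested. Of 16 disease-associated oligodendrocyte genes, a list that holds C4b and Stat3, which the study named for oligodendrocytes from these samples, 6 were tested. C4b and Stat3 passed (2 of 6, where 0.048% of all genes tested did, in a list that already held both, and C4b could pass the filter on low counts through the SOD1G93A mice alone), and the other 4 did not, among them Ctsb, a lysosomal protease (0.51 ± 0.25, FDR = 0.842), Klk6 (0.22) and Apod (-0.12). Serpina3n, a protease inhibitor, had 23 UMIs over all 12 mice and the class I genes H2-D1 and B2m 31 and 36, too few to test.

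Of 16 IL-6 family and STAT3 pathway genes 9 were tested and only Stat3 passed (1 of 9, against 0.048% of all genes tested). The list was drawn up with Stat3 already named by the study for oligodendrocytes from these samples, so this share is no separate support. Among those that did not were the shared receptor subunit Il6st (-0.11), the kinases Jak1 (0.20), Jak2 (-0.24) and Tyk2 (0.15), the receptor Lifr (0.08), the phosphatase Ptpn11 (-0.03) and Igf1r (-0.08 ± 0.10, FDR = 0.970). The median of the 9 was -0.03. Socs3, a target of STAT3, had 1 UMI in all.

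Of 15 complement genes and regulators 3 were tested, C4b, Pros1 and Cd59a (0.17). C4b and Pros1 were low in WT mice and could pass the filter on low counts through the SOD1G93A mice, so no median is given. C1s1 and Cfb were at 0 UMIs, C3 had 1, and C2 had 13.

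The other lists gave no call in limma. Among 6 tested folate, serine and integrated stress response genes the median was -0.13, with Aldh1l2 as the 1 positive member. The lactate and glucose support genes (6 tested, median 0.02), the iron and metal handling genes (4 tested, median 0.13) and the heat-shock and chaperone genes (7 tested, 6 negative, median -0.07) had no member with an unadjusted p below 0.05. Of 12 tested axon contact and paranode genes 2 did, where 363 of 6245 genes did in all. They were Cntnap2 (0.38, FDR = 0.676), a member of the contactin-associated protein family, and Erbb4 (-0.25, FDR = 0.842), a neuregulin receptor. Erbb4 and Kcnj10, a potassium channel (-0.33, FDR = 0.842), were each lower in 6 of 6 pairs. No immediate early gene had enough UMIs to be tested.

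Stage markers did not pass either. The oligodendrocyte markers (7 tested, median 0.07), the oligodendrocyte transcription factors (5 tested, -0.07), the OPC markers (5 tested, -0.19), the committed and newly formed markers (4 tested, 0.07), the myelin-forming markers (4 tested, 0.11), the type 2 markers (6 tested, -0.02) and the type 5 and 6 markers (7 tested, -0.13) held no call in limma. Of other cell types, 6 astrocyte markers were tested (median 0.04), with 1 microglia marker, 1 Schwann marker and no endothelial marker, none of them called.

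Whether the genotype effect differed between the sexes was asked in the same model. No gene of 6245 passed in limma (0 calls, 0%), the smallest FDR was 0.406, and 233 genes had an unadjusted p below 0.05. edgeR and DESeq2 also called 0, with 195 and 58 genes at an unadjusted p below 0.05. For C4b the effect in males minus that in females was -0.39, for Stat3 -0.04 and for Xpo1 -0.07, each with an FDR of 0.997.

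The effects were last set beside those in the same mice's other large sub-clusters. Fitted alone, sub-cluster 0 had 8 calls among 4477 genes and sub-cluster 2 had 1 among 7134. C4b was higher in SOD1G93A mice in sub-cluster 0 as well (2.32 ± 0.43, limma FDR = 0.00938) and had too few UMIs to be tested in sub-cluster 2. Stat3 had 1.15 ± 0.21 in sub-cluster 0 (FDR = 0.00938) and 0.46 ± 0.19 in sub-cluster 2 (FDR = 0.999). Xpo1, called in sub-cluster 1, had 0.23 ± 0.20 in sub-cluster 0 (FDR = 0.982) and 0.40 ± 0.19 in sub-cluster 2 (FDR = 0.999). Aldh1l2 passed in sub-cluster 0 (1.36 ± 0.27, FDR = 0.0188) and not in sub-cluster 1, and Pros1 had 1.55 and 1.42 in sub-clusters 0 and 2 beside the 1.39 of sub-cluster 1.

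A joint fit with a term per mouse tested the differences themselves, and none was called. For the effect in sub-cluster 1 minus that in sub-cluster 0, 0 of the 7784 genes in the fit (0%) passed in limma, the smallest FDR was 0.565 and 336 genes had an unadjusted p below 0.05. For sub-cluster 1 minus sub-cluster 2 there were also 0 calls (0%), a smallest FDR of 0.120 and 226 such genes. edgeR called 0 in both, with 359 and 302 genes at an unadjusted p below 0.05. For Xpo1 the effect in sub-cluster 1 exceeded that in sub-cluster 0 by 0.56 ± 0.24 (SE), and for C4b by 0.20 ± 0.56, neither of which passed, so the calls do not show an effect limited to sub-cluster 1. The smallest FDR, 0.120, belonged to Sod1, whose effect in sub-cluster 1 was lower than in sub-cluster 2 by a log2 difference of -1.25 ± 0.26. Fitted alone, Sod1 had 1.05 ± 0.25 in sub-cluster 0 (FDR = 0.333) and 1.75 ± 0.17 in sub-cluster 2, where it was the 1 call (FDR = 0.000195), beside 0.52 ± 0.14 in sub-cluster 1. Without male WT pool A or female SOD1G93A pool C the Sod1 difference passed (FDR = 0.0533 and 0.0462), and over all single mice left out its FDR reached 1.00.

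**Figure D5:**
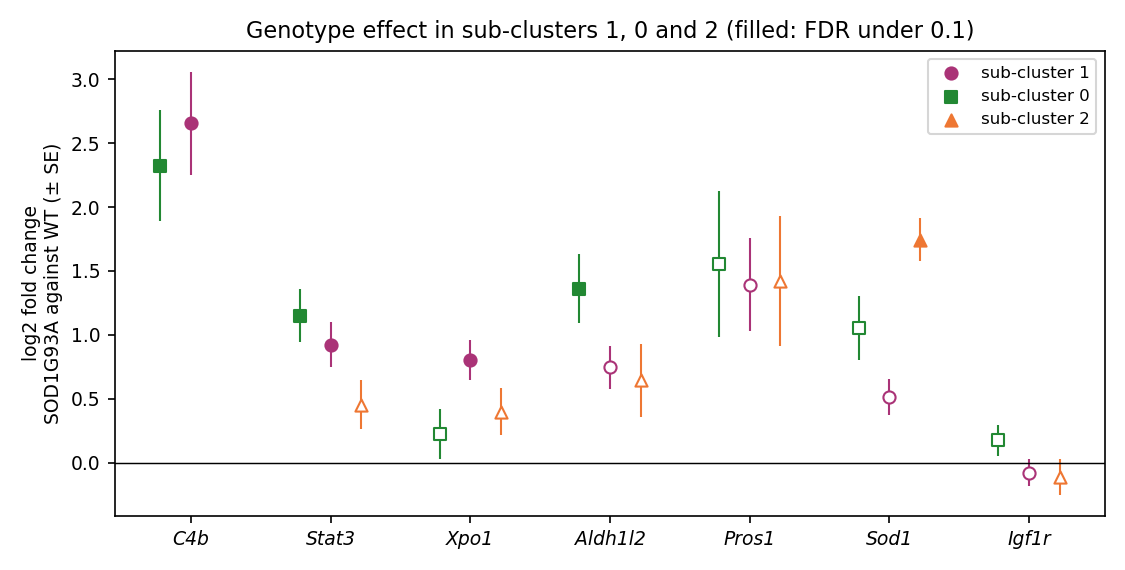
Log2 fold change (SOD1G93A against WT, bars are SEs) of 7 genes in sub-clusters 1, 0 and 2, each fitted alone over the same 12 mice, with filled points at an FDR below 0.1. C4b and Stat3 were filled in sub-clusters 1 and 0, Xpo1 in sub-cluster 1 (0.81), Aldh1l2 in sub-cluster 0 (1.36) and Sod1 in sub-cluster 2 (1.75).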

How the data were processed

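Single nuclei of lumbar spinal cord from 12 mice were profiled with droplet sequencing in 3 hashtag pools. The submitters' processing notes name bcl2fastq 2.20.0.422, STAR 2.5.1b, Cell Ranger 3.1, Seurat 4.0.3, R 4.0.3 and the mm10 build. The authors deposited UMI counts per gene and nucleus (31040 genes, 14662 nuclei), without mitochondrial genes, and a table with mouse, cell type, sub-cluster and the percent of mitochondrial UMIs. The authors removed hashtag multiplets, and no further doublet caller was run. Of 15 barcodes found in more than 1 pool, 2 belonged to sub-cluster 1 nuclei. Gene positions are from the GENCODE annotation of GRCm38.

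UMIs of sub-cluster 1 were summed per mouse. Genes were kept with filterByExpr (minimum count 10) and tested with limma 3.58.1 in voom with robust eBayes, TMMwsp factors, a term for each group of sex and genotype and a term for pool (R 4.3.3), with Benjamini-Hochberg FDR over all genes tested and a threshold of 0.1. Sub-cluster shares were tested with edgeR 4.0.16 (threshold 0.05). Effects of sub-clusters 0, 1 and 2 were compared in 1 limma fit with a term per mouse. Levels across sub-clusters used unscaled CPM and Python 3.11.15. The fits of the genotype effect and of the differences between sub-clusters were also run on simulated counts without pool or mouse effects. The outcome is not given here, and the share test and the sex contrast were not simulated. Pool is a batch named in the labels and pairs the mice. Deviations from the mean of each sex and genotype correlated within a pool (median r 0.133, above 0.1 in 11 of 18 pairs). Between pools the median was -0.0911, above 0.1 in 5 of 36. Each sex and genotype had 1 mouse per pool, so the centring pushes these values down and they give no separate contrast.

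The genes named were those past the threshold, the 5 higher and 5 lower genes of smallest p among those moving the same way in 6 of 6 pairs, Sod1 and genes the study names for oligodendrocytes, of which 1 is not reported here. For levels they were the 12 higher and 12 lower genes with the largest ratio to the nearer of sub-clusters 0 and 2 among those with at least 50 CPM. The members and gene lists were chosen with earlier results of these data known. Alternatives were edgeR, DESeq2 1.42.0, other scaling, filters and model terms, other sets of nuclei, other denominators and each mouse left out. Genotype effects in sub-clusters 3 and 4 were not fitted.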

Additional observations from a re-analysis of the deposited data

Results flagged for a closer look

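The summed OPC markers in sub-cluster 1 of female SOD1G93A pool C stood apart from those of the other SOD1G93A mice, at 1126 CPM against 141 to 298 CPM. The gap was 0.841 of the group's range, above the 95% critical value of Dixon's test for 6 mice. The value rests on 215 UMIs over 20 nuclei, of which 102, with 37 of Tnr, an extracellular matrix protein, lay in 1 nucleus of 12789 UMIs, and the next highest nucleus had 42. Without that nucleus the mouse had 635 CPM. This was 1 of 52 groups of 6 mice examined, and chance alone marks about 1 in 20. Whether the nucleus is a doublet was not tested.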

How the results depend on the processing

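The count of genes called between genotypes, 3 in limma, was 1 with DESeq2, 1 without the robust option and 0 of 2925 with a minimum count of 30, where 181 had an unadjusted p below 0.05 and C4b was not tested. It was 25 (21 higher) with no filter except 1 UMI, 7 (4 higher) without nuclei above the 95th percentile of UMIs, and 7 (3 higher) without the 10% of nuclei highest in neuron markers, an alternative chosen after seeing the data. edgeR and TMM factors each gave 3. Without the pool block the count was 1 (C4b), and no call changed without the block for the sex difference or the share (log2 fold change 0.19). For the differences between sub-clusters the mouse as a random block was run instead (0 calls in limma, 370 and 319 genes at an unadjusted p below 0.05). Leaving out single mice gave 1 to 8 calls: 1 without male WT pool B, female SOD1G93A pool A or male SOD1G93A pool B, 7 without male SOD1G93A pool A and 8 without female SOD1G93A pool B or C. C4b was called without any single mouse (FDR 0.00208 to 0.0536), and Stat3 and Xpo1 each in 6 of 12 such fits and in 5 of 9 other settings (highest FDR 0.231 and 0.389). For the sex difference there were 2 calls with no filter except 1 UMI and 0 to 2 with a mouse left out, 2 without male SOD1G93A pool B. For the differences between sub-clusters a mouse left out gave 0 to 1 calls, the 1 being Sod1 or, without male SOD1G93A pool B, Arhgap24. The log2 fold change of the share stayed between 0.06 and 0.31 with a mouse left out. Genes lower in sub-cluster 1 numbered 731 in the 6 WT mice alone (5 of 6 mice required). That rule is more easily met by chance than 10 of 12 mice, so 731 is not a like count to the 391 of all mice. Its share and the matching count of higher genes are not given here. Thinning to 1000 UMIs gave 230 higher and 181 lower. Igf1r turned to 0.0200 without female SOD1G93A pool C (range -0.16 to 0.0200). Of 309 values of named genes under alternatives 308 kept their direction, a count nearly fixed by how the genes were chosen. Most were called in these counts or picked for moving the same way in 6 of 6 pairs, so the count is no separate support. The cause of the changes between settings was not tested. C4b rests on 0 to 5 UMIs per WT mouse.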
